A study of Homo sapiens with 8 samples.

Results

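The axon guidance genes described here are the genes of 4 ligand-receptor systems: ephrins with their EPH receptors, semaphorins with plexins and neuropilins, netrins with DCC-family and UNC5 receptors, and SLITs with ROBO receptors. They were chosen by gene symbol in a table of 63677 genes. The symbol pattern matched 76 rows, or 72 distinct symbols, and 59 of them reached 10 normalized reads in at least 4 of the 8 libraries and were tested, among 19559 tested genes in all. Of the 59, 27 belonged to the semaphorin-plexin system, 19 to the ephrin system, 9 to the netrin system and 4 to the SLIT-ROBO system. RNA came from LY2 cells, an endocrine-resistant derivative of the MCF-7 breast cancer line. One group of 4 libraries stably carried a short hairpin RNA against NCOA1, the gene of the nuclear receptor coactivator SRC-1 (shSRC1), and the other 4 carried a non-targeting hairpin (shNT). Both groups were cultured with 4-hydroxytamoxifen, the active metabolite of tamoxifen, and under puromycin at 500 ng/mL, spent 72 h in steroid-depleted medium and were treated with 4-hydroxytamoxifen for 8 h, so no untreated cells enter the comparison. The labels give no number of hairpins or clones for the shSRC1 group, and none of them ties a replicate to a culture of its own, so p-values here reflect library-to-library spread, possibly technical in origin.

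Guidance molecules were named for steering growing axons, but the same ligands and receptors act on adhesion, migration and tissue boundaries in epithelia. Ephrins are membrane-bound ligands, the A type held by a lipid anchor and the B type by a transmembrane segment, and their EPH receptors are receptor tyrosine kinases that signal on cell contact. Semaphorins bind plexins, with neuropilins as co-receptors for most secreted class 3 members. Netrins bind DCC, neogenin and the UNC5 receptors, and SLITs bind ROBO receptors. The netrin-Gs, NTNG1 and NTNG2, were counted with the netrins by symbol, and no binding to the netrin receptors is meant for them. In mammary tissue, EPHB4 with ephrin-B2, netrin-1 with neogenin and SLIT2 with ROBO1 are known from the mouse gland as organisers of ducts.

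NCOA1 itself stood at 2036 ± 151 normalized reads in shSRC1 and 4396 ± 137 in shNT (SD, n = 4 each), a log2 change (log2 fold change, shSRC1 over shNT) of -1.11 (SE 0.08). The shSRC1 libraries held 65352354, 33771775, 65321247 and 66248960 reads in genes and the shNT libraries between 58459196 and 67022036, so shSRC1 replicate 2 was the shallowest. A library's values could also depend on transcript GC content: across 18787 genes, Spearman's rho between GC content and a library's deviation from the mean log2 value was 0.48 in shSRC1 replicate 1 and lay between -0.22 and 0.19 in the other 7 libraries. The median GC content of the axon guidance transcripts was 59.0%, against 48.7% over the tested genes. All 8 luminal epithelial markers were expressed in every library, with summed values of 513845 to 583254 normalized reads in shSRC1 and 340043 to 416533 in shNT. KRT8, KRT18 and KRT19 rose, with log2 changes of 0.68, 0.47 and 0.68, and the other 5 markers did not pass, at -0.16 for EPCAM, -0.13 for ESR1, -0.07 for FOXA1, 0.11 for CDH1 and 0.19 for GATA3. Markers of neurons summed to 957 to 1189 in shSRC1 and 1243 to 1402 in shNT, of which SYT1 was 779 to 1036 in shSRC1 and 1085 to 1240 in shNT. Of the 4 neuron markers tested, SYT1 and RBFOX3 fell, while SNAP25 and SYP did not pass, at -0.37 and 0.24. Markers of glia summed to 1101 to 1158 in shSRC1 and 733 to 942 in shNT, nearly all of it MBP, which rose by 0.37 on the log2 scale (limma adjusted p = 0.0139). The neuronal gene ELAVL4 and the endothelial gene PECAM1 were at 0 in every library, but other markers of non-epithelial cells were expressed. The endothelial gene VWF had 193 to 281 in shSRC1 and 227 to 266 in shNT. The fibroblast gene COL1A1 had 1351 to 1892 in shSRC1 and 1536 to 2039 in shNT. None of the tested endothelial, fibroblast or leukocyte markers passed. The part of the marker differences in the results was not tested, and in bulk RNA fewer cells of a type and less RNA per cell cannot be told apart.

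Of the 59 axon guidance genes, 14 rose and 10 fell in shSRC1 at a limma adjusted p of 0.05, and 35 did not pass. These 24 are 40.7% of the group, where 23.2% of all tested genes and 26.1% of the 13934 tested protein-coding genes passed. Neither of these backgrounds was matched to the members by level. Higher values made up 23.7% of the group, against 12.0% of all tested genes, and lower values 16.9% against 11.2%. The libraries of the groups did not overlap in 22 of the 59, or 37.3%, against 29.0% of all tested genes. Receptors passed more often than ligands in these counts, 15 of 28 against 9 of 31, a difference that was not tested. Changes were mostly small: the median size of the log2 change was 0.28 over the group and 0.24 over all tested genes, and 4 members, all receptors, passed with a change of at least 1 on the log2 scale, as did 3.54% of all tested genes. Of the 24 calls, 17 were made under all 20 alternative settings, 12 of them rises and 5 falls. The falls were less settled, with 6 in place of 10 without shSRC1 replicate 2, 3 or 4 or shNT replicate 1, each left out singly.

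**Figure D1:**
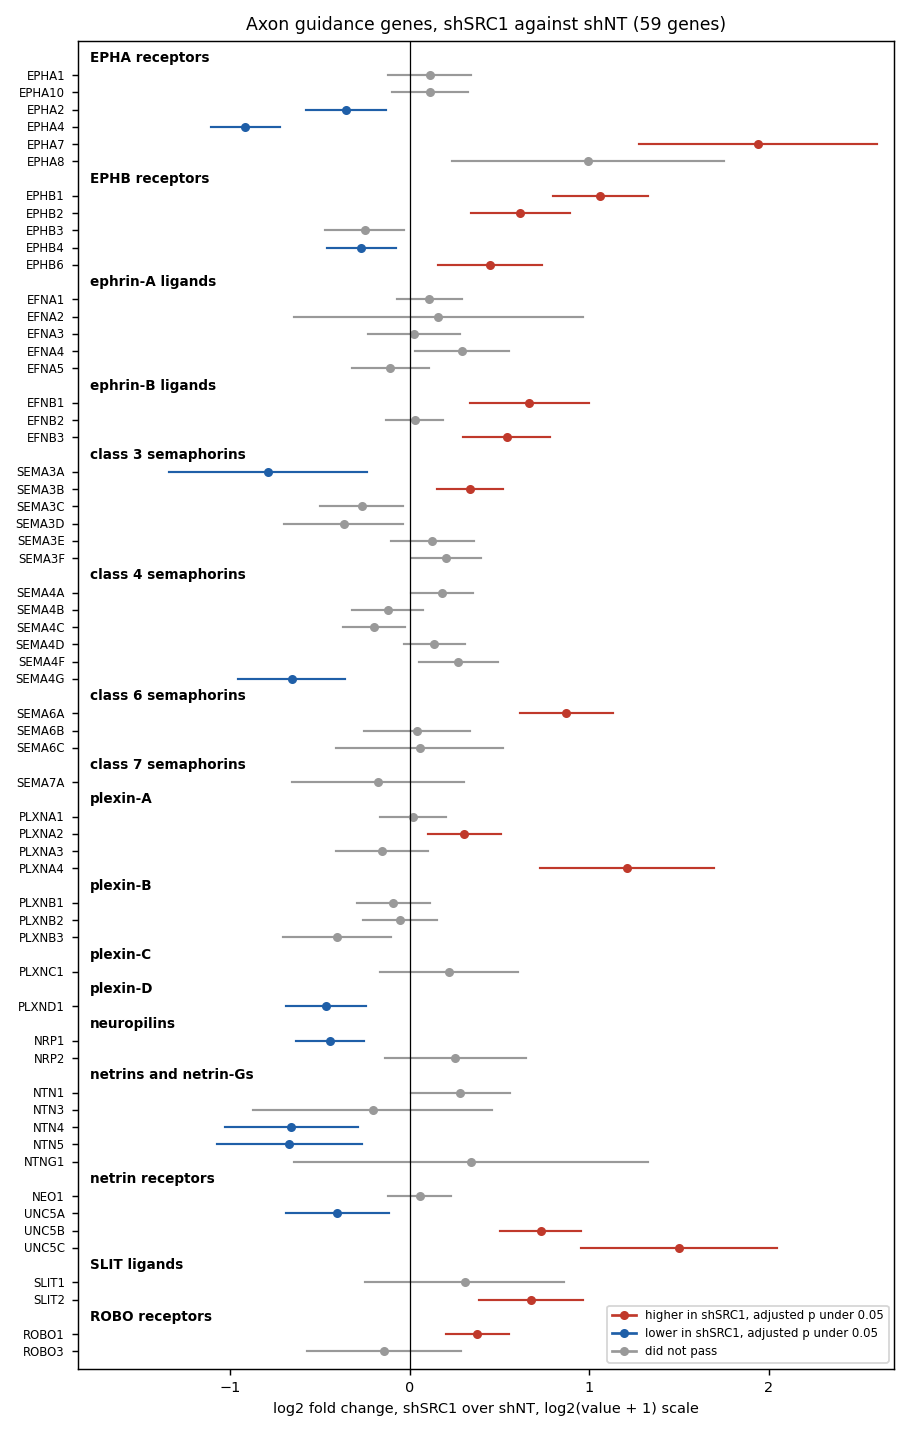
Log2 fold change of each of the 59 tested axon guidance genes, shSRC1 over shNT, on the horizontal axis, with genes listed by class. Points are limma estimates and lines their 95% confidence intervals, and colour shows the 14 genes that rose, the 10 that fell and the 35 that did not pass.

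The promoters printed here are those of the 2 rises and 2 falls with the smallest adjusted p among genes in the promoter table. SEMA6A and UNC5B, with smaller adjusted p than EPHA7, and NRP1, with a smaller one than SEMA4G, had no promoter entry. Each printed window runs from 250 bases before to 50 bases after a RefSeq start site on GRCh38.p14 and reads 5′ to 3′ on the gene's strand. Capitals mark the GC box GGGCGG on either strand, the motif found in these windows.
EPHB1, + strand, chr3:134795010-134795309: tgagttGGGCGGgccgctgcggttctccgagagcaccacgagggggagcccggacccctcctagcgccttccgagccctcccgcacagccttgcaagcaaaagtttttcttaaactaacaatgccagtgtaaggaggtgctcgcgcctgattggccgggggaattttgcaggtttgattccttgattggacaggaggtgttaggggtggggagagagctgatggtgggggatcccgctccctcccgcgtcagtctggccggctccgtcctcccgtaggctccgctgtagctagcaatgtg
EPHA7, - strand, chr6:93419510-93419809: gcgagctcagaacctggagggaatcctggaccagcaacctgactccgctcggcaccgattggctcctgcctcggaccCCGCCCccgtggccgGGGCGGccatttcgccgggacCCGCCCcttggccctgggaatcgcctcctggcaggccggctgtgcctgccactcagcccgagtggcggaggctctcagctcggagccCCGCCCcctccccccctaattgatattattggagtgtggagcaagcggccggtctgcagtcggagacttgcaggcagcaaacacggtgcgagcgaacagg
EPHA4, - strand, chr2:221574153-221574452: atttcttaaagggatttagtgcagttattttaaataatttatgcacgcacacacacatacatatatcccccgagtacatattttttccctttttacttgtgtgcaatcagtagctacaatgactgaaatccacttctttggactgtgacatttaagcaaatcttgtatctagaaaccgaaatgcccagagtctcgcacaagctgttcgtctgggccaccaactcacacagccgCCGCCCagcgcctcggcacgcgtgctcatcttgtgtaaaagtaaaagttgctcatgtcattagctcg
SEMA4G, + strand, chr10:100969254-100969553: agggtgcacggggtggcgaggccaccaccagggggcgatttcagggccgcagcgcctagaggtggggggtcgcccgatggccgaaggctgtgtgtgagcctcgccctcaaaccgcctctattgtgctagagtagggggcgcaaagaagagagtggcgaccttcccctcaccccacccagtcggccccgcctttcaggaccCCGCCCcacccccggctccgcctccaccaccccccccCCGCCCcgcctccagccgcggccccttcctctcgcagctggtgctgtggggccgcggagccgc
EPHB1 and EPHA7 are the rises, EPHA4 and SEMA4G the falls. The EPHA4 window had 43.0% GC and 12 CpG pairs, while the windows of EPHB1, EPHA7 and SEMA4G had 61.3%, 68.3% and 72.7% GC and 19, 24 and 25 CpG pairs. The table gave 77 windows for 50 of the 59 genes, since some genes have several starts: EPHA7 has 3, EPHA4 and SEMA4G 2 each, and the first listed is shown. Which start these cells use was not tested. GC boxes were in 59 of the 77 windows, or 76.6%, against 45.0% of 35116 windows of all genes. The estrogen response element, GGTCA and its reverse complement 3 bases apart, was in none of the 77 and in 0.057% of all windows. The nuclear receptor core motif AGGTCA, which can overlap that element, was in 7 windows (9.09%, against 13.8% of all). Of these, 2 were among the 11 windows of genes that fell and none among the 19 windows of genes that rose. The AP-1 motif TGANTCA was in 1 window (1.30%, against 7.71% of all). Both strands were searched, and a match describes these letters only.

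In the ephrin system 6 of 19 genes rose and 3 fell, or 47.4%, against 23.2% of all tested genes. Among the EPHA receptors, 1 of 6 rose and 2 fell. EPHA4, a receptor with wide ephrin specificity that binds A and B types, had 534, 544, 503 and 533 normalized reads in the shSRC1 libraries, against 945, 945, 1100 and 1007 in the shNT libraries. Every shSRC1 library lay far below every shNT library. Its log2 change of -0.92 (SE 0.09, limma adjusted p = 7.06e-06) was the largest fall among the 59. EPHA7 had 54.1, 64.7, 85.4 and 62.3 in shSRC1, against 11.1, 32.0, 15.8 and 12.6 in shNT. All shSRC1 libraries were higher, and the rise of 1.94 (SE 0.31, limma adjusted p = 0.000594) was the largest of the 59, from a low level. EPHA2, a receptor common in epithelial cancers, had 1050, 826, 842 and 807 in shSRC1, against 1260, 1109, 1115 and 1013 in shNT. The groups met at shSRC1 replicate 1, and the fall of 0.35 on the log2 scale (SE 0.10, limma adjusted p = 0.0247) did not pass without any one of shSRC1 replicates 2, 3 and 4 and shNT replicate 1, with adjusted p-values of 0.0696, 0.0632, 0.0709 and 0.0823. EPHA1, which with EPHA2 had the most reads of the class, had 1244, 1034, 967 and 1042 in shSRC1, against 1030, 1100, 822 and 1023 in shNT, with overlapping groups (limma adjusted p = 0.476). Exons of EPHA1 overlap ZYX on the other strand, which stood at 4694 in shSRC1 and 5628 in shNT, so its own level is uncertain. EPHA10, a receptor without kinase activity, also did not pass (log2 fold change 0.11). EPHA8 did not overlap between groups, at 15.4 to 28.4 in shSRC1 and 6.28 to 15.1 in shNT, but missed the threshold with a log2 change of 0.99 (SE 0.36, limma adjusted p = 0.056). Without shNT replicate 2, EPHA8 passed with an adjusted p of 0.0383.

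The EPHB receptors divided by level, with 3 scarcer members rising and the most abundant falling. EPHB1 had 235, 252, 244 and 266 normalized reads in shSRC1, against 122, 116, 123 and 113 in shNT, a log2 change of 1.06 (SE 0.12, limma adjusted p = 3.70e-05). No library came near the other group. EPHB2 had 598, 467, 445 and 449 in shSRC1, against 365, 328, 264 and 319 in shNT, a rise of 0.62 (SE 0.13, limma adjusted p = 0.00402). The groups did not overlap, shSRC1 replicate 1 was the highest, and without it the rise was 0.52 (adjusted p = 0.017). EPHB6, the EPHB receptor without kinase activity, had 404, 383, 322 and 318 in shSRC1, against 250, 242, 232 and 327 in shNT. Only shNT replicate 4 reached the shSRC1 range, and the log2 change was 0.45 (SE 0.14, limma adjusted p = 0.0283), a call made in 14 of 20 alternatives. Leaving out shSRC1 replicate 1 or 2 or shNT replicate 1, 2 or 3 gave it adjusted p-values of 0.0534 to 0.0873. EPHB4, the receptor of ephrin-B2, had 10509, 8811, 8679 and 8409 in shSRC1, against 11986, 10696, 10249 and 10878 in shNT. The groups overlapped through shSRC1 replicate 1, and the fall of 0.27 on the log2 scale (SE 0.09, limma adjusted p = 0.0416) was made in 13 of 20 alternatives. It held without shSRC1 replicate 1 or shNT replicate 3, while leaving out any other library gave 0.0543 to 0.126. Exons of EPHB4 overlap SLC12A9 on the other strand, which stood at 7430 in shSRC1 and 9589 in shNT, and without strand information reads in that overlap cannot be assigned. EPHB3 stood at 1397 ± 183 in shSRC1 and 1659 ± 161 in shNT (SD, n = 4 each, limma adjusted p = 0.0875). It passed in 4 of 20 alternatives, among them without shSRC1 replicate 1, its highest library (0.0261). With correction for GC content and length it passed too (0.0105). Per kb of transcript, the 5 receptors summed to 2309 ± 244 normalized reads in shSRC1 and 2671 ± 185 in shNT. EPHB4 made up 77.7% to 78.2% of that sum in shSRC1 and 80.8% to 81.6% in shNT, so it led the class in every library.

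Of the ligands for these receptors, 2 of 3 ephrin-B genes rose. None of 5 ephrin-A genes passed in limma without a replicate block, in edgeR or in DESeq2. EFNA4 had an unadjusted p below 0.05 in limma (0.0301) and passed in 1 of 20 alternatives, the fit with the replicate block. The difference between the types was not tested and rests on few genes, where 23.2% of all tested genes passed. The ephrin-B ligands span the membrane and can signal into their own cell. EFNB1 had 531, 374, 443 and 420 normalized reads in shSRC1, against 301, 318, 198 and 306 in shNT, a log2 change of 0.67 (SE 0.16, limma adjusted p = 0.00759). The groups were apart, with shNT replicate 3 the lowest, and without that library the rise was 0.51 (adjusted p = 0.00859). EFNB3 had 739, 675, 645 and 748 in shSRC1, against 480, 533, 391 and 537 in shNT, a rise of 0.54 (SE 0.11, limma adjusted p = 0.00423), again with no overlap. EFNB2, the ephrin-B with the highest level per kb, had 1759, 1708, 1790 and 1838 in shSRC1, against 1717, 1739, 1742 and 1763 in shNT. Its log2 change of 0.03 had a 95% confidence interval of -0.13 to 0.19, narrow around no change. Summed per kb, ephrin-B genes stood at 664 to 742 in shSRC1 and 530 to 612 in shNT, and the share of EFNB2 was 50.3% ± 1.96 in shSRC1 and 59.9% ± 4.04 in shNT (SD, n = 4 each). EFNA1, the leading ephrin-A gene and a ligand of EPHA2, had 2931, 2778, 2741 and 2735 in shSRC1, against 2529, 2839, 2295 and 2731 in shNT, which overlapped (log2 fold change 0.11, limma adjusted p = 0.353). EFNA2, EFNA3, EFNA4 and EFNA5 had log2 changes of 0.16, 0.02, 0.29 and -0.11, and that of EFNA3 turned negative in 5 of 20 alternatives.

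**Figure D2:**
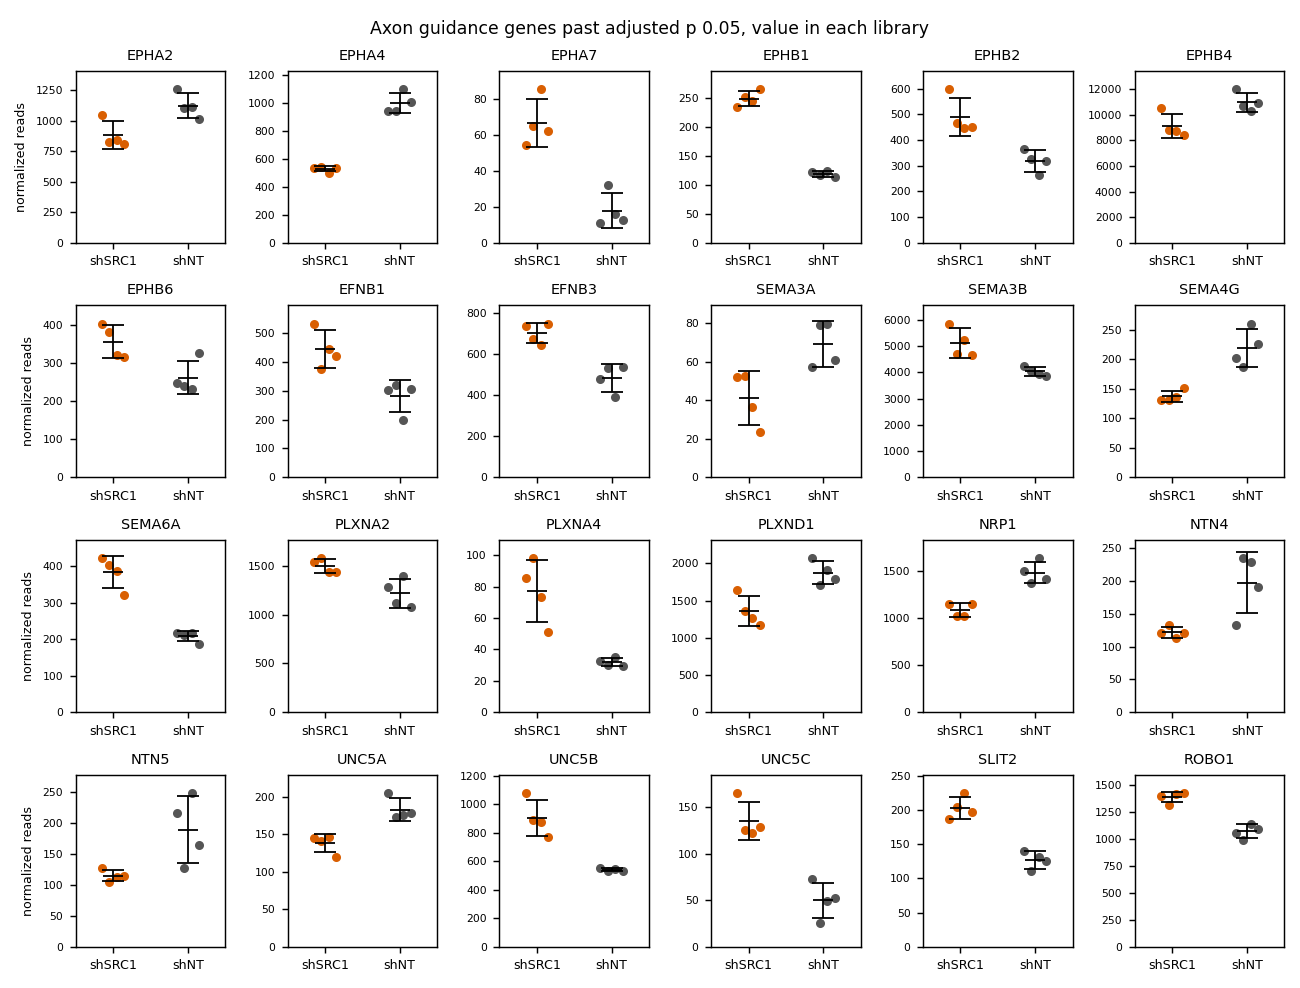
Normalized reads, on vertical axes from 0, in each of the 4 shSRC1 and 4 shNT libraries for the 24 axon guidance genes past an adjusted p of 0.05. Each point is a library and bars are the mean and SD. The groups are apart in 20 panels and overlap in EPHA2, EPHB4, EPHB6 and NTN5.

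In the semaphorin-plexin system 4 genes rose, 4 fell and 19 did not pass, a share of 29.6%, near that of all tested genes. SEMA6A, a transmembrane semaphorin that binds A-type plexins, had 422, 404, 388 and 321 normalized reads in shSRC1, against 216, 212, 217 and 187 in shNT. All shSRC1 libraries were higher, a rise of 0.87 on the log2 scale (SE 0.12, limma adjusted p = 0.000182). Its known receptors PLXNA4 and PLXNA2 rose too. PLXNA4 had 85.4, 98.0, 73.6 and 51.3 in shSRC1, against 32.5, 30.2, 35.3 and 29.6 in shNT, a log2 change of 1.21 (SE 0.23, limma adjusted p = 0.00192) at a low level. PLXNA2 had 1538, 1576, 1438 and 1436 in shSRC1, against 1282, 1118, 1392 and 1078 in shNT, a smaller rise of 0.30 (SE 0.09, limma adjusted p = 0.032). The groups did not overlap for either plexin, though the PLXNA2 call was made in 13 of 20 alternatives and was lost, among others, in edgeR on recovered reads (adjusted p = 0.0533) and without shSRC1 replicate 1, 2 or 3 or shNT replicate 2 or 4 (0.0530 to 0.101). Other class 6 members did not pass: SEMA6B had 382, 371, 278 and 295 in shSRC1, against 346, 307, 267 and 365 in shNT, and SEMA6C had a log2 change of 0.06.

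Class 3 semaphorins, the secreted ones, went both ways. SEMA3B, described as a tumour suppressor in lung and breast, had 5847, 4696, 5239 and 4653 normalized reads in shSRC1, against 4256, 4052, 3947 and 3876 in shNT, a rise of 0.34 (SE 0.09, limma adjusted p = 0.0133) with no overlap. SEMA3A, the collapsing factor of sensory axons that acts through neuropilin-1, had 52.2, 52.5, 36.3 and 23.8 in shSRC1, against 57.5, 79.1, 79.8 and 61.0 in shNT. Its fall of 0.79 on the log2 scale (SE 0.26, limma adjusted p = 0.0399) rested on few reads, had groups that came close, and was made in 12 of 20 alternatives. Without shSRC1 replicate 3 or 4 or shNT replicate 2, 3 or 4 the adjusted p was 0.0523 to 0.112, and after correction for GC content and length it was 0.132. SEMA3C had by far the most reads of the 59 genes, with 34037, 34324, 43421 and 43743 in shSRC1, against 41978, 44859, 49364 and 50223 in shNT. The groups overlapped and the log2 change was -0.27 (SE 0.11, limma adjusted p = 0.0835). In SEMA3C, replicates 1 and 2 of each group lay below replicates 3 and 4 of the same group, and its transcript has a low GC content of 39.4%; with libraries corrected for GC content and length its log2 change was -0.15 (adjusted p = 0.085). SEMA3C passed in 2 of 20 alternatives, DESeq2 on recovered reads (adjusted p = 0.0429) and the fit with the replicate block (adjusted p = 0.0188). SEMA3D and SEMA3E had log2 changes of -0.37 and 0.13 and did not pass, while with the same correction SEMA3D stood at -0.17 and SEMA3E at 0.27, which passed (adjusted p = 0.0446). With the replicate block SEMA3D passed (adjusted p = 0.00431). SEMA3F did not overlap, at 3633 to 4664 in shSRC1 and 3216 to 3539 in shNT, yet missed the threshold (log2 fold change 0.20, limma adjusted p = 0.111). It passed with the correction for GC content and length (log2 change 0.21, adjusted p = 0.0113). Summed per kb, class 3 stood at 10398 ± 971 in shSRC1 and 11441 ± 724 in shNT (SD, n = 4 each), of which SEMA3C made up 67.0% to 75.8% in shSRC1 and 76.7% to 80.1% in shNT.

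Of 6 class 4 semaphorins, which are membrane-bound and signal mainly through B-type plexins, SEMA4G alone passed. SEMA4G had 131, 131, 135 and 151 normalized reads in shSRC1, against 201, 187, 260 and 226 in shNT, a log2 change of -0.66 (SE 0.14, limma adjusted p = 0.00434). Its groups were well apart, but its exons overlap those of the mitochondrial ribosomal gene MRPL43 on the other strand, which had 2361 in shSRC1 and 2434 in shNT, so its own level is uncertain. SEMA4C, the class 4 member with the most reads, had 4062, 3546, 3444 and 3434 in shSRC1, against 4386, 3993, 4090 and 4145 in shNT, with a log2 change of -0.20 (limma adjusted p = 0.0847) that passed in 5 of 20 alternatives, among them without shSRC1 replicate 1 (0.0310). SEMA4A, SEMA4B, SEMA4D and SEMA4F had log2 changes of 0.18, -0.12, 0.14 and 0.27. SEMA7A, a lipid-anchored semaphorin, had 136, 71.7, 64.5 and 81.6 in shSRC1, against 102, 95.1, 114 and 76.3 in shNT, and overlapped.

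NRP1 and PLXND1, receptors for class 3 semaphorins, fell. NRP1, a co-receptor for SEMA3A and also for VEGF, had 1155, 1025, 1027 and 1153 normalized reads in shSRC1, against 1500, 1379, 1639 and 1423 in shNT. No library overlapped, and the log2 change was -0.45 (SE 0.09, limma adjusted p = 0.00281). PLXND1, which binds SEMA3E without a neuropilin, had 1643, 1356, 1269 and 1178 in shSRC1, against 2068, 1717, 1916 and 1791 in shNT, a fall of 0.47 on the log2 scale (SE 0.10, limma adjusted p = 0.00595). NRP2 had 73.1, 75.2, 79.1 and 55.0 in shSRC1, against 59.4, 56.9, 60.3 and 57.4 in shNT (log2 fold change 0.25, limma adjusted p = 0.328). Per kb, NRP1 was 93.6% to 96.0% of the neuropilin sum in shSRC1 and 96.5% to 96.9% in shNT. The abundant plexins stayed close: PLXNB2 had 15460, 12763, 12704 and 11579 in shSRC1, against 14894, 12788, 13819 and 12846 in shNT (log2 fold change -0.06, 95% confidence interval -0.26 to 0.15). PLXNA1 had 7848, 6573, 6743 and 6321 in shSRC1, against 7318, 6453, 6758 and 6528 in shNT (log2 fold change 0.02, 95% confidence interval -0.16 to 0.20). PLXNA3 and PLXNB1 had log2 changes of -0.16 and -0.09. Exons of PLXNA3 overlap LAGE3 on the other strand, which stood at 5658 in shSRC1 and 3967 in shNT. PLXNB3 missed the threshold at a limma adjusted p of 0.0502, with a log2 change of -0.41, and passed in 9 of 20 alternatives, among them without shSRC1 replicate 1, shNT replicate 2 or shNT replicate 4 (0.0241 to 0.0341). Its exons overlap SRPK3 on the same strand, which was also lower. PLXNC1 had 194, 192, 172 and 192 in shSRC1, against 125, 149, 244 and 147 in shNT, and without shNT replicate 3, the highest, its log2 change was 0.42 (adjusted p = 0.0367) in place of 0.22. Exons of PLXNC1 overlap CEP83 on the other strand, which stood at 677 in shSRC1 and 1070 in shNT. Without strand information, reads in the overlaps of PLXNA3 and PLXNC1 cannot be assigned.

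In the netrin system 2 receptors rose, while 1 receptor and 2 ligands fell, or 55.6% of 9 genes, against 23.2% of all tested genes. UNC5B, a netrin-1 receptor known as a dependence receptor and a p53 target, had 1078, 891, 874 and 769 normalized reads in shSRC1, against 553, 530, 544 and 534 in shNT. Every shSRC1 library was higher, a log2 change of 0.73 (SE 0.11, limma adjusted p = 0.000252). UNC5C had 165, 126, 122 and 128 in shSRC1, against 72.4, 25.8, 49.2 and 52.0 in shNT, a rise of 1.5 (SE 0.26, limma adjusted p = 0.00098), without overlap. UNC5A, of the same family, went the other way with 145, 142, 146 and 120 in shSRC1, against 205, 173, 175 and 179 in shNT. Its fall of 0.40 on the log2 scale (SE 0.14, limma adjusted p = 0.0433) was made in 11 of 20 alternatives, and its groups did not overlap. Leaving out any library but shNT replicate 3 gave an adjusted p of 0.0548 to 0.126. Neogenin, NEO1, held most of the receptor level and had 4756, 4409, 4014 and 4266 in shSRC1, against 4501, 4097, 4294 and 3896 in shNT (log2 fold change 0.05, 95% confidence interval -0.12 to 0.23). Per kb, NEO1 made up 75.4% to 78.9% of the 4 receptors in shSRC1 and 80.5% to 81.9% in shNT. NTN4, a laminin-binding netrin of basement membranes, had 121, 133, 113 and 121 in shSRC1, against 134, 235, 229 and 191 in shNT. The groups came close at shNT replicate 1 without overlapping, and the log2 change was -0.66 (SE 0.17, limma adjusted p = 0.0148). NTN5 had 127, 105, 114 and 115 in shSRC1, against 217, 127, 249 and 164 in shNT, with a log2 change of -0.67 (SE 0.19, limma adjusted p = 0.0204). Its groups overlapped at shNT replicate 2, and leaving out shNT replicate 1 gave an adjusted p of 0.0649 and leaving out shSRC1 replicate 2 gave 0.0505. NTN1, netrin-1 itself, had 332, 317, 265 and 283 in shSRC1, against 284, 218, 223 and 262 in shNT, and did not pass (log2 fold change 0.28, limma adjusted p = 0.123). NTN3 and NTNG1 were low, with means of 27.0 and 12.6 in shSRC1 and 32.5 and 9.74 in shNT.

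In the SLIT-ROBO system the main ligand and the main receptor both rose, 2 of 4 genes, against 23.2% of all tested genes called. SLIT2 had 186, 205, 224 and 196 normalized reads in shSRC1, against 140, 110, 131 and 126 in shNT, a log2 change of 0.68 (SE 0.14, limma adjusted p = 0.00303). ROBO1 had 1396, 1316, 1413 and 1422 in shSRC1, against 1057, 984, 1140 and 1093 in shNT, a rise of 0.38 (SE 0.08, limma adjusted p = 0.00499). Neither gene overlapped between groups, and both calls were made in 20 of 20 alternatives. SLIT1, at 27.5 to 47.5 in shSRC1 and 22.3 to 33.8 in shNT, and ROBO3, at 68.2 to 117 in shSRC1 and 72.4 to 106 in shNT, did not pass.

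**Figure D3:**
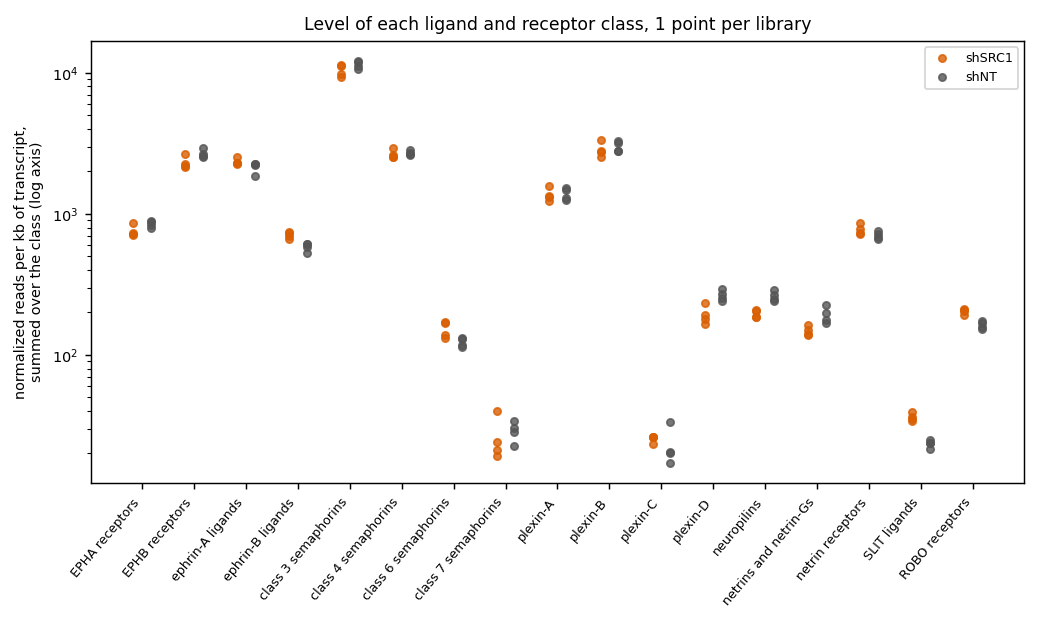
Normalized reads per kb of longest transcript, summed over the tested genes of each ligand or receptor class, on a log axis with 1 point per library and shSRC1 left of shNT. Class 3 semaphorins are highest, and the shSRC1 points lie apart from the shNT points in ephrin-B ligands, plexin-D, neuropilins, netrins, SLIT ligands and ROBO receptors.

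Per kb of transcript, class 3 semaphorins, B-type plexins, class 4 semaphorins, EPHB receptors and ephrin-A ligands were the highest classes, with the plexin-B sum at 2853 ± 333 in shSRC1 and 3015 ± 256 in shNT. SLIT ligands, SEMA7A and PLXNC1 were the lowest, with SLIT sums of 36.2 ± 2.32 in shSRC1 and 23.4 ± 1.35 in shNT. Class sums are given without a test. By level, of the 29 members in the lower range of mean level, 9 rose and 5 fell, while of the 30 above, 5 rose and 5 fell. The share called in these ranges among all tested genes was not computed, so the counts cannot be read as particular to the members. The median size of the log2 change was 0.40 in the lower range and 0.26 above, and the median standard error was 0.18 and 0.095, so the lower genes were also less precisely measured.

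Earlier results of these data showed runs of shifted genes along several chromosomes, so each gene was set beside the median log2 fold change of up to 50 tested genes on each side. These medians ran from -0.24 to 0.37 for the 59 genes, and were at least 0.15 in size for 16, of which 10 moved in the direction of their neighbours and 6 against it. EFNB3 and NTN1, on chromosome 17, had log2 changes of 0.54 and 0.28 where their neighbours had medians of 0.37 and 0.32. Among the neighbours of EFNB3, 48.0% were higher and 2.00% lower by the test. SEMA3A, SEMA3C, SEMA3D and SEMA3E, on chromosome 7, lay among neighbours with medians of -0.22, -0.20, -0.24 and -0.22, and EPHB4, on the same chromosome, fell by 0.27 where its neighbours had a median of -0.19. SEMA3B and SEMA3F, on chromosome 3, had medians of 0.20 and 0.20 around them. On chromosome 10, UNC5B rose by 0.73 among neighbours with a median of -0.23, and NRP1 fell by 0.45 among neighbours with -0.18. NTN4, on chromosome 12, fell by 0.66 where the median was -0.21. Besides UNC5B, the genes that went against their neighbours were SEMA3E, SLIT1, EFNB2, PLXNC1 and PLXNB1, none of them called. Their log2 changes were 0.13, 0.31, 0.03, 0.22 and -0.09, where the medians were -0.22, -0.22, -0.24, -0.20 and 0.16. EPHA7, UNC5C, PLXNA4 and EPHB1, the 4 largest rises, had neighbour medians of 0.03, -0.03, -0.03 and 0.05. The part that shifted neighbourhoods play in single genes was not tested.

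**Figure D4:**
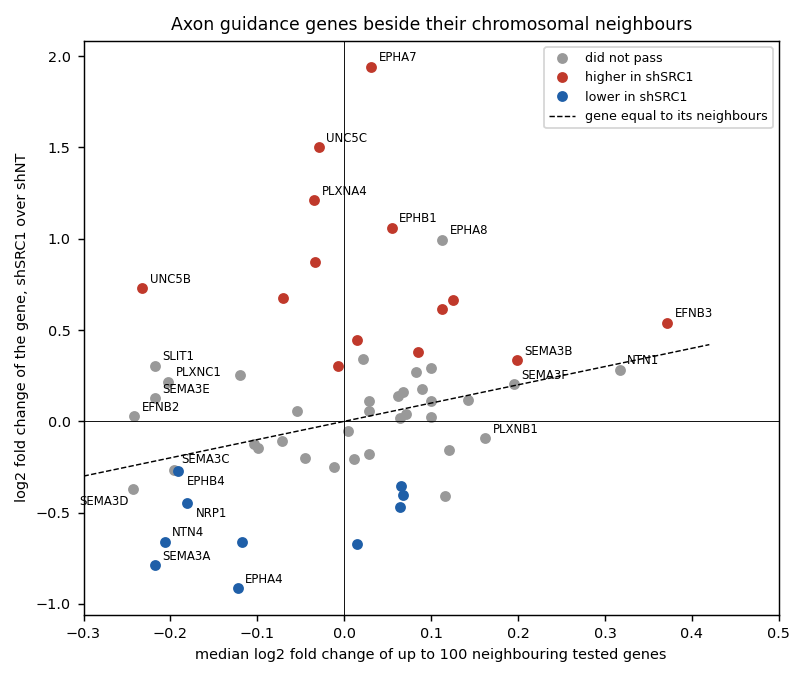
Log2 fold change of each axon guidance gene, shSRC1 over shNT (vertical axis), against the median log2 fold change of up to 100 neighbouring tested genes (horizontal axis); colours show the call and the dashed line marks equality. The large rises EPHA7, UNC5C, PLXNA4 and EPHB1 sit near 0 on the horizontal axis, while EFNB3 and NTN1 sit at 0.37 and 0.32.

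Genes that act with these receptors were taken from lists chosen by function. Of 54 tested effectors and adaptors inside the cell, 6 rose and 7 fell, or 24.1%, about the share of all tested genes, with a median log2 fold change of -0.02. DPYSL3 and CRMP1, collapsin response mediators that carry semaphorin signals to microtubules, rose: DPYSL3 stood at 266 ± 14.8 in shSRC1 and 92.1 ± 17.7 in shNT, and CRMP1 at 36.1 ± 15.5 in shSRC1 and 2.95 ± 1.10 in shNT (SD, n = 4 each), with log2 changes of 1.54 and 3.18 (limma adjusted p = 9.37e-06 and 8.32e-05). The shNT values of CRMP1 lie at about the level of 3 reads, so the size of its rise is imprecise. Only the shSRC1 libraries of CRMP1 reached the minimum level for testing. Its call and adjusted p are therefore not independent of that selection. FYN, a SRC-family kinase downstream of plexins and EPH receptors, rose by 1.18 (SE 0.14, limma adjusted p = 5.41e-05). The kinase ROCK2 and the motor MYO10, which carries netrin receptors in filopodia, fell by 0.57 and 0.31 on the log2 scale. Of 27 tested co-receptors and modulators, 2 rose and 8 fell, or 37.0%, with a median of -0.07. CNTN1, a neural adhesion molecule, fell to 26.3 ± 7.55 in shSRC1, against 167 ± 27.2 in shNT (SD, n = 4 each), a log2 change of -2.65 (SE 0.24, limma adjusted p = 2.38e-06). SDC1 and GPC1, heparan sulfate proteoglycans, a kind of molecule that helps SLITs bind ROBO receptors, fell by 0.87 and 0.48, and the adhesion molecules L1CAM and NRCAM, partners of neuropilins in neurons, by 0.74 and 0.44. MET, a receptor tyrosine kinase that associates with B-type plexins, fell by 0.40 (SE 0.09, limma adjusted p = 0.00693) and lies, like NRCAM, on chromosome 7, with neighbour medians of -0.15 and -0.18.

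The 13 symbols that did not reach the minimum were EPHA3, EPHA5, EPHA6, SEMA3G, SEMA5A, SEMA5B, SEMA6D, NTNG2, DCC, UNC5D, SLIT3, ROBO2 and ROBO4. The highest value in any library was 9.28 normalized reads for SEMA3G, 7.00 for SLIT3, 5.33 for EPHA6, 4.64 for DCC, 2.85 for EPHA3, 2.79 for SEMA5A, 2.75 for ROBO4, 1.83 each for EPHA5 and SEMA6D, 1.75 for SEMA5B and 0.897 for ROBO2. NTNG2 had 27.5 in shNT replicate 2 and at most 10.2 in the other 7 libraries. DCC, the classical netrin receptor, had 13 reads in all 8 libraries together, and ROBO2 had 1. UNC5D had 0, and a library with 0 reads allows up to 3 reads, or 2.67 to 5.25 normalized reads. A further 4 rows repeated the symbols SEMA3B, EPHB6, PLXNA3 and PLXNB3 under other identifiers with 0 reads.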

How the data were processed

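Poly(A) RNA of 8 libraries was sequenced after TruSeq preparation, per the labels' protocols, with no stranded kit named. The submitters' processing notes name GRCh37, the aligner TopHat2 2.0.12, the counter HTSeq 0.6.1, and both DESeq2 and DESeq. Annotation and counting options are not in the sources used here. The authors deposited a signal per gene, reads divided by a library size factor; 100.0% of values came out as whole reads within 0.001. These are not counts, so limma 3.58.1 (R 4.3.3) with trend and robust variances was run on log2(value + 1), which understates changes of low genes. Genes with at least 10 in at least 4 libraries were tested, two-sided, Benjamini-Hochberg over 19559 genes, with no replicate block. Confidence intervals measure spread between libraries, and read floors counting error only. Alternatives were TMM and upper-quartile scaling, other filters and pseudocounts, edgeR 4.0.16 and DESeq2 1.42.0 on recovered reads, GC and length correction, a replicate block and left-out libraries, 20 in all.

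The genes, lists, neighbour measure and motifs were chosen with earlier results of these data known. Values in every library are given for members that passed and for the member with the most reads in each class; up to 6 genes per pathway list by adjusted p were eligible to be named, and 1 of them is not reported here. GENCODE 29 on GRCh38, another build, served for gene order, overlaps, and the longest transcript's length and GC content, matched by identifier for 96.1% of tested genes, and promoter sequences come from RefSeq on GRCh38.p14. The limma and edgeR steps were tested on simulated data. No value column was left unused.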

Additional observations from a re-analysis of the deposited data

Results flagged for a closer look

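Each member's 4 values per group were screened for a library that lies far from the other 3, in 120 groups including those of NCOA1. Chance flags about 1 in 20 such groups, and 13 were flagged. In 7 of them the library was shSRC1 replicate 1, each time the highest of its group: EPHA2 at 1050 normalized reads (next 842), EPHB2 at 598 (next 467), EPHB3 at 1667 (next 1333), EFNA3 at 516 (next 429), EFNA5 at 481 (next 432), UNC5C at 165 (next 128) and SEMA3F at 4664 (next 3768). That library also had the steepest relation to GC content, with Spearman's rho of 0.48 across genes, whose part in these values was not tested. With libraries corrected for GC content and length, EPHB2 and UNC5C rose by 0.59 and 1.5 on the log2 scale, against 0.62 and 1.5 without the correction, and EPHA2 fell by 0.36 against 0.35. EPHB3 and SEMA3F, not called in the reported values, passed with the correction at -0.25 and 0.21 (limma adjusted p = 0.0105 and 0.0113). EFNA3 turned from 0.02 to -0.034, and EFNA5 passed in none of the 20 alternatives. In shNT replicate 1, ROBO3 was low at 72.4 (next 100.4), while EPHB3 was high at 1898 (next 1607) and UNC5A high at 205 (next 179). The other 3 were EFNB1, low in shNT replicate 3 at 198 (next 301), SEMA6A, low in shNT replicate 4 at 187 (next 212), and PLXNC1, low in shSRC1 replicate 3 at 172 (next 192).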

How the results depend on the processing

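No call among the 24 members reversed under any of the 20 alternatives, and of 480 such values 435 kept the call and 45 lost it, all in EPHA2, EPHB4, EPHB6, UNC5A, NTN5, SEMA3A and PLXNA2. The number of members called ran from 18 to 31 around 24, the number of other pathway genes from 16 to 29 around 23, and NCOA1 passed throughout. Over all genes 3166 to 6398 passed, against 4538, with 4635 in edgeR and 5304 in DESeq2 on recovered reads. Leaving out 1 library gave 18 members (without shSRC1 replicate 2) to 24, and 20 with shNT replicate 3 and shSRC1 replicate 2 both removed.

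The labels do not tie same-numbered replicates to a shared batch. Deviations from the group means correlated at 0.24, -0.01, 0.13 and 0.14 across genes between same-numbered replicates, and 3 of 4 shSRC1 libraries correlated best with their own number, a hint of pairing from the data that 1 of the pairs does not share; the numbers were not used as pairs in the values reported. With the replicate block 31 members passed (16 higher, 15 lower) and 6398 genes, the added members being EPHB3, EFNA4, SEMA3C, SEMA3D, SEMA4C, SEMA4F and PLXNB3; with the block and GC and length correction together, 29 and 6060; with the correction alone, 28 and 5610. Of the members not called, 11 passed under some alternative, PLXNB3 in 9 of 20, and 8 changed sign.

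These signs turned as follows, the cause not tested. With GC and length correction, with or without the block, EFNA3 stood at -0.034 and EFNB2 at -0.017. With single libraries left out, EFNA3 ran from -0.072 (without shNT replicate 3; -0.044 without shSRC1 replicate 1) to 0.075, SEMA6B from -0.043 (without shNT replicate 3; -0.031 and -0.017 without shSRC1 replicate 1 and 2) to 0.12, PLXNA1 from -0.046 (without shSRC1 replicate 1; -0.0026 without shNT replicate 2) to 0.058, EFNA2 from -0.10 (without shSRC1 replicate 2; -0.094 without shNT replicate 2) to 0.38 and SEMA6C from -0.074 (without shSRC1 replicate 2; -0.071 without shNT replicate 2) to 0.17. PLXNB2 ran from -0.14 to 0.0026, positive without shSRC1 replicate 4, and ROBO3 from -0.29 to -0.038. With shNT replicate 3 and shSRC1 replicate 2 both removed, ROBO3, EFNA3 and SEMA6B stood at 0.016, -0.044 and -0.10. Neighbour medians over 25 genes on each side moved by less than the standard error of the gene. Scarce genes such as NTNG1, NTN3, SLIT1 and EFNA2, had standard errors of 0.26 to 0.46, which limits what can be seen of them.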
